A study of Rattus norvegicus with 11 samples.

Results

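Mitochondrial ribosomal protein genes were followed in the soleus muscle of 11 adult male rats. They were chosen by name, as the rows of the count table whose symbol starts with Mrpl or Mrps and then a digit, read in any letter case. The rule found 71 of 16810 rows, 44 of the large subunit (Mrpl) and 27 of the small subunit (Mrps), and 3 of them (Mrpl11, Mrpl24 and Mrpl9) are written in lower case in the table. All 71 were counted well enough to enter the test, among 10814 genes in all. The mitochondrial ribosome makes the few proteins that mitochondrial DNA encodes, all of them core subunits of the respiratory chain and ATP synthase. Its RNAs come from mitochondrial DNA, but all of its proteins are encoded in the nucleus, made in the cytosol and imported. Slow muscle such as the soleus is rich in mitochondria and draws on this supply throughout life.

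The high-fat group was 5 Sprague Dawley males aged 12 months whose mothers ate a diet rich in saturated fat, mainly lard, and in sucrose. The control group was 6 males of the same strain and age whose mothers ate a normal fat diet. The labels give the fat content as 23.3% or 23.5% for the high-fat diet and 6% or 7% for the normal one, in separate places, with 20% and 10% sucrose. Both diets ran for 3 weeks before mating and then through pregnancy and lactation. Both groups were weaned at day 21 and ate standard chow afterwards, so no offspring ate the test diet as an adult, and each animal came from its own litter. The study's title asks about insulin resistance and oxidative phosphorylation in such offspring. Poly(A) RNA was sequenced in 1 library per animal, with 10.2 to 15.4 M counted reads each (M, mega). Slow fibre genes (Myh7, Tnnt1 and 5 more) summed to 69773.5 to 99960.4 counts per M counts (CPM, scaled between libraries) in high-fat animals and 80558.4 to 98804.5 CPM in controls, and of 4 T and B cell genes in the table none passed the filter.

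Nuclear factors that serve mitochondrial genes are known to bind near gene starts, so the promoters of members were read first. RefSeq start sites of assembly GRCr8 were at hand for 58 of the 71 genes. Mrpl46 and Mrps11, which make a large and a small subunit protein, stand head to head on chromosome 1. Their starts lie 234 bases apart, and the whole stretch between them (chr1:142117031-142117263, plus strand) is shown because it lies before both starts. It holds no match to any of the motifs described next, so no base is in capitals. A match to the YY1 site described below begins 24 bases after the start of Mrpl46, outside this stretch.
Mrpl46 to Mrps11: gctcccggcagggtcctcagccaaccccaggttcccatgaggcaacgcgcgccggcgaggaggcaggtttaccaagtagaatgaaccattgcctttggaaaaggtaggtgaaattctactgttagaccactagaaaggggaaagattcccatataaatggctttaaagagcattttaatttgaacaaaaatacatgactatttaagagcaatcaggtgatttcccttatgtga

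An exact palindrome, the best-known motif of nuclear respiratory factor NRF1, stood before the start of 4 members. NRF1 drives many nuclear genes for mitochondrial proteins. The stretches below show this motif in capitals with up to 25 bases on each side, 5′ to 3′ on the gene's own strand. In Mrpl17 (chr1:169575720-169575779, minus strand) the motif began 55 bases before the start, and in Mrpl32 (chr17:55260564-55260623, plus strand) 62 bases before it. In Mrpl44 (chr9:88554893-88554952, plus strand) it began 132 bases before the start, and in Mrps18b (chr20:2842961-2843005, plus strand) 20 bases before it.
Mrpl17: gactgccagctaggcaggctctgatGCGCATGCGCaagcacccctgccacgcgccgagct
Mrpl32: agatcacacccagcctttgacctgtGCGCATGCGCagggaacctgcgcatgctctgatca
Mrpl44: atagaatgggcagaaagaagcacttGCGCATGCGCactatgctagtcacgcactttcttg
Mrps18b: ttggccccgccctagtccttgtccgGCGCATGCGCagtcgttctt

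Promoters were searched on both strands from 250 bases before to 50 bases after the start. The exact NRF1 palindrome was in 6.90% of the 58 member promoters, against 1.96% of 8047 promoters of genes tested in this muscle and 0.932% of all 27457. A looser form with 1 free base near its centre, which includes the exact one, was in 15.5% of member promoters, 9.94% of tested ones and 4.71% of all. CCGGAAG, a core site of ETS factors such as GABP, was in 31% of member promoters, against 17.4% of tested ones and 9.22% of all. AAGATGGCG, a form of the YY1 site, was in 15.5% of member promoters, 3.88% of tested ones and 1.93% of all. A longer form of that site was in 12.1% of member promoters, 1.98% of tested ones and 0.798% of all. At least 1 of the looser NRF1 form, CCGGAAG and AAGATGGCG was in 50% of member promoters and 27.5% of tested ones. In the 250 bases before the start alone these shares were 29.3% and 23.5%. There CCGGAAG was in 17.2% of member promoters and 15.1% of tested ones, the looser NRF1 form in 12.1% and 9.11%, the exact palindrome in 6.90% and 1.81%, and AAGATGGCG in 1.72% and 1.34%. The AAGATGGCG shares include its longer form. A match is a description of letters, and no binding was measured. Head-to-head neighbours with starts at most 1000 bases apart were found for 18 of the 58 members (31%), against 15.8% of promoters of tested genes and 10.3% of all. Besides the pair above, Mrpl47 stands beside Ndufb5, a complex I subunit gene, and Mrpl32 beside Psma2, a proteasome subunit gene.

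Large subunit members took more reads in total than small subunit members in every library. Their summed level was 2646 to 3512 CPM in high-fat animals and 2813 to 4226 CPM in controls, against 1270.4 to 1742 CPM in high-fat animals and 1327 to 1933 CPM in controls for the small subunit. The ratio of these sums held to 1.99 to 2.20 in high-fat animals and 2.07 to 2.19 in controls, although the number of genes differs, 44 against 27. Per gene, the median over members of the mean level was 64.4 CPM for the large subunit and 52.3 CPM for the small one, with ranges of 16.8 to 338 CPM and 8.85 to 118 CPM. CPM counts reads per gene and not per length, and transcript lengths were not used here. An order of genes by CPM is therefore an order of reads, not of transcripts. All 71 members together took 0.440% to 0.509% of counts in high-fat libraries and 0.429% to 0.566% in controls.

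At the high end, Mrpl14, a core protein of the subunit interface side, had 376, 393, 313, 341 and 218 CPM in high-fat animals 1 to 5. Control animals 1 to 6 had 324, 312, 235, 505, 275 and 429 CPM. The groups overlapped, with high-fat animal 5 lowest and control animal 4 highest. Mrpl12, the stalk protein that recruits translation factors and also binds the mitochondrial RNA polymerase, had 205, 253, 235, 218 and 159.9 CPM in high-fat animals. It had 207, 226, 201, 316, 215 and 296 CPM in controls. Again high-fat animal 5 was lowest, and control animals 4 and 6 were highest. Mrpl54, which sits near the stalk, averaged 191 ± 48.7 CPM in high-fat animals and 215 ± 74.4 CPM in controls (SD, n = 5 and 6). In the small subunit Mrps15 averaged 116 ± 32.4 CPM in high-fat animals and 119 ± 20.6 CPM in controls, and Mrps7, a head protein that contacts the ribosomal RNA, 114 ± 15.0 and 117 ± 19.6 CPM. The row Mrps36 stood at 108 ± 15.5 and 118 ± 26.3 CPM. RefSeq now calls it Kgd4, since its product is known as an adaptor of the oxoglutarate dehydrogenase complex and not as a ribosomal protein. Among members with few reads were Mrps10 (9.44 ± 2.20 CPM in high-fat animals and 8.35 ± 1.78 CPM in controls), Mrpl49 (16.4 ± 1.65 and 17.2 ± 1.81 CPM), Mrps28 (18.2 ± 3.77 and 21.0 ± 3.99 CPM) and Mrpl40 (21.5 ± 4.68 and 23.3 ± 3.61 CPM).

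**Figure D1:**
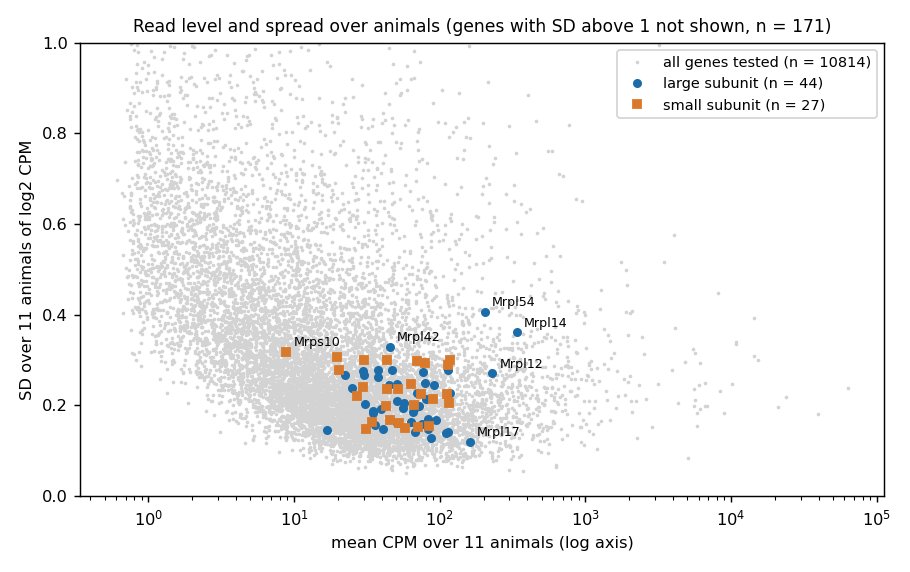
Mean level over the 11 animals in CPM (log axis) against the SD over animals of log2 CPM, for the 44 large subunit members (circles), the 27 small subunit members (squares) and all 10814 genes tested (grey dots). 171 genes with an SD above 1 lie outside the frame. Members lie between 8.85 and 338 CPM and inside the cloud of other genes, with Mrpl54 and Mrpl14 at the upper edge of the members.

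Members varied over animals about as much as other genes read at similar levels. The median SD over the 11 animals of log2 CPM was 0.21 for the 71 members, 0.20 for the large subunit and 0.23 for the small one. It was 0.22 for the 7118 genes tested within the members' range of mean CPM and 0.27 for all genes tested. The median biological coefficient of variation was 0.164 for members, 0.165 for the 7118 genes and 0.191 for all genes. The steadiest members were Mrpl17, which lines the exit tunnel (SD 0.12), Mrpl9 (0.13) and Mrpl3 (0.14). Mrpl17 had 181, 169, 158, 153 and 132 CPM in high-fat animals, against 152 to 175 CPM in controls. The widest were Mrpl54 (0.41), Mrpl14 (0.36) and Mrpl42 (0.33). Mrpl54 had 258, 215, 195, 152 and 137 CPM in high-fat animals, against 188, 175, 143, 345, 179 and 258 CPM in controls, so control animal 4 alone stood well above the rest.

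Most members moved up and down together from animal to animal. The mean over members of each gene's deviation from its own mean over animals (log2 CPM) was 0.03, 0.03, -0.02, -0.03 and -0.29 in high-fat animals 1 to 5. It was 0.00, -0.04, -0.24, 0.27, 0.03 and 0.26 in control animals 1 to 6. High-fat animal 5 and control animal 3 were low and control animals 4 and 6 high, while the other 7 lay within 0.04 of 0. In high-fat animal 5, 68 of 71 members lay below their own median over animals, and so did 65 in control animal 3. Only 7 members did so in control animal 4 and 1 in control animal 6. The lowest value of a member fell in high-fat animal 5 for 38 members and in control animal 3 for 21, and the highest in control animal 4 for 38 and in control animal 6 for 21. The SD of a member over animals had a median of 0.21, and 0.13 once the mean of the other members was subtracted. That SD shrank for 64 of 71 members.

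The subunits did so in step. The mean deviation of the large subunit members was 0.02, 0.04, -0.01, -0.05 and -0.29 in high-fat animals, and that of the small subunit members 0.06, 0.004, -0.03, -0.01 and -0.29. In controls the large subunit stood at -0.01, -0.04, -0.24, 0.28, 0.02 and 0.27 and the small at 0.01, -0.04, -0.24, 0.26, 0.03 and 0.24. The difference between the subunits therefore had an SD over animals of only 0.02, against 0.17 for all members together. Subtracting the mean of the other subunit from a member removed a median of 63.4% of its variance over animals, and subtracting the mean of all other members 62.2%. These figures describe 11 libraries, share the scaling of each library and were not tested.

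**Figure D2:**
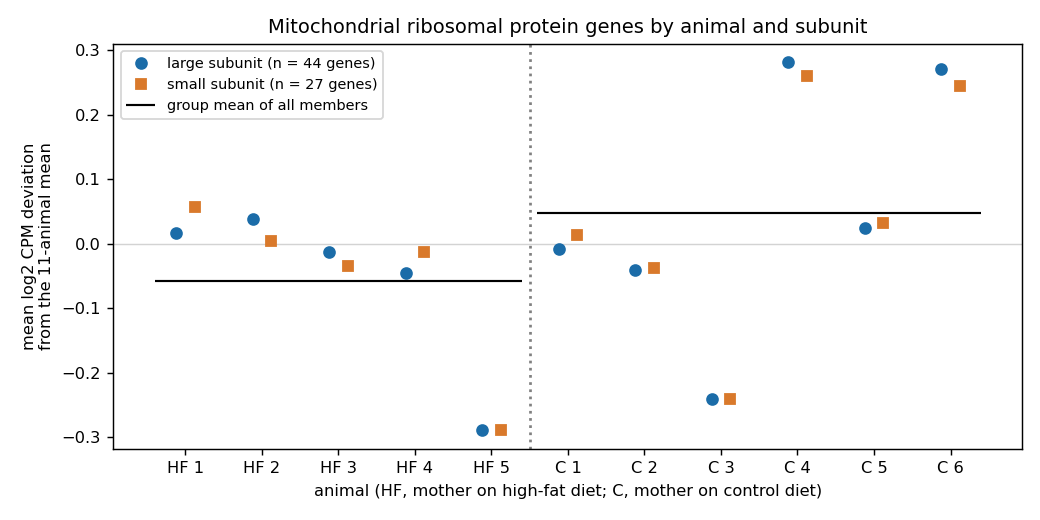
Mean deviation of log2 CPM from each gene's mean over 11 animals, for the 44 large subunit members (circles) and the 27 small subunit members (squares) in each animal. Horizontal lines are the means of all 71 members in the 5 high-fat animals (-0.06) and the 6 control animals (0.05). The subunits lie almost on top of each other in each animal, and high-fat animal 5, control animal 3 and control animals 4 and 6 lie farthest from 0.

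The scaling of the libraries bore on the size of this swing. Scaling factors from the trimmed mean of M values (TMM) were 0.947, 0.924, 1.05, 1.02 and 1.12 for high-fat animals 1 to 5 and 1.05, 1.04, 1.04, 0.919, 1.01 and 0.897 for control animals 1 to 6. With library totals alone the mean deviation of members was -0.05, -0.09, 0.05, -0.002 and -0.12 in high-fat animals and 0.07, 0.02, -0.19, 0.15, 0.05 and 0.10 in controls. Its SD over animals was 0.10 instead of 0.17. Control animal 3 and high-fat animal 5 were still the lowest and control animals 4 and 6 the highest.

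Markers of other cells and fibres also differed between these animals, not always in step with the members. The 8 fibroblast and matrix genes summed to 1653, 1255, 3173, 3459 and 3645 CPM in high-fat animals 1 to 5 and to 3232, 2267, 3806, 1899, 1651 and 1054 CPM in control animals 1 to 6. They were high in high-fat animal 5 and control animal 3, where members were low, but nearly as high in high-fat animals 3 and 4 and control animal 1, where members were level. The lowest matrix sum was in control animal 6, where members were high. The 11 macrophage genes summed to 1097, 295, 657, 1115 and 1818 CPM in high-fat animals and to 1036, 439, 855, 636, 354 and 461 CPM in controls. Their highest sum was in high-fat animal 5, where members were low, and their lowest in high-fat animal 2, where members were level. The mean deviation of the 6 adipocyte genes (log2 CPM) was -1.07, -0.27, 0.00, -0.06 and 1.15 in high-fat animals and 0.66, 0.09, 1.28, -1.83, -0.31 and 0.36 in controls. It was highest in the animals with the lowest members, high-fat animal 5 and control animal 3, and lowest in control animal 4, but above 0 in control animal 6. The summed level of these genes had another order, highest in high-fat animal 3 (683 CPM) and lowest in high-fat animal 4 (303 CPM). It was 578 CPM in high-fat animal 5, and 611 and 484 CPM in control animals 3 and 4. The 10 fast fibre genes summed to 11087.7 to 38676.4 CPM in high-fat animals and 10491 to 47231.7 CPM in controls, lowest in control animal 3 and highest in control animals 4 and 6. By mean deviation they were also lowest in control animal 3 (-1.81), but highest in control animals 2 (1.14) and 5 (0.83). That value was 0.67 and 0.38 in control animals 4 and 6, and -0.04 in high-fat animal 5. Endothelial genes summed to 303 to 551 CPM in high-fat animals and 271 to 481 CPM in controls, smooth muscle and pericyte genes to 284 to 567 and 238 to 552 CPM, and red cell genes to 578 to 1270 and 683 to 1005 CPM. All 11 macrophage genes had higher means in high-fat animals (median log2 fold change 0.68), as did 6 of 8 matrix genes (0.26), while 9 of 10 fast fibre genes had lower ones (-0.70). Of 7 slow fibre genes 6 had lower means, with a median log2 fold change of -0.10, as for the 71 members. Their mean deviation was lowest in high-fat animal 5 (-0.32) and highest in control animals 6 (0.21) and 4 (0.20). It was also high in high-fat animal 2 (0.18), and only -0.06 in control animal 3. Of the other lists, 4 of 6 adipocyte, 1 of 5 endothelial, 0 of 4 smooth muscle and pericyte and 2 of 3 red cell genes had lower means. The part of these lists in the results was not tested. In whole muscle a smaller share of fibre RNA and less of a transcript per fibre cannot be told apart.

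A few members did not follow the rest. Subtracting the mean of the others left the SD of 7 members no smaller, namely Mrps10, Mrps2, Mrps27, Mrpl49, Mrpl51, Mrps30 and Mrps31. Mrps10, a head protein, had 7.5 CPM in high-fat animal 1 and 10.4 CPM in high-fat animal 5, where other members were low. It had 6.5 CPM in control animal 4, where other members were high. Mrps30 carries a small subunit name but is a large subunit protein in solved structures, and it had 58.3, 57.9, 57.2, 58.8 and 49.9 CPM in high-fat animals. In controls it had 55.2, 66.1, 49.2, 53.1, 66.3 and 65.5 CPM. It was therefore low in high-fat animal 5 and control animal 3 but was not high in control animal 4. The members also spread apart within high-fat animal 1. There Mrps15 lay 0.53, Mrps35 0.45 and Mrpl30 0.44 above the mean of the other members on the log2 scale. In the same animal Mrps27 lay 0.50, Mrpl4 0.46 and Mrpl40 0.44 below it. The SD of the 71 deviations was 0.211 in high-fat animal 1 and 0.213 in control animal 4, against 0.112 to 0.164 in the other 9. Of these genes, Mrpl30 and Mrpl4 were picked after their values were seen.

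**Figure D3:**
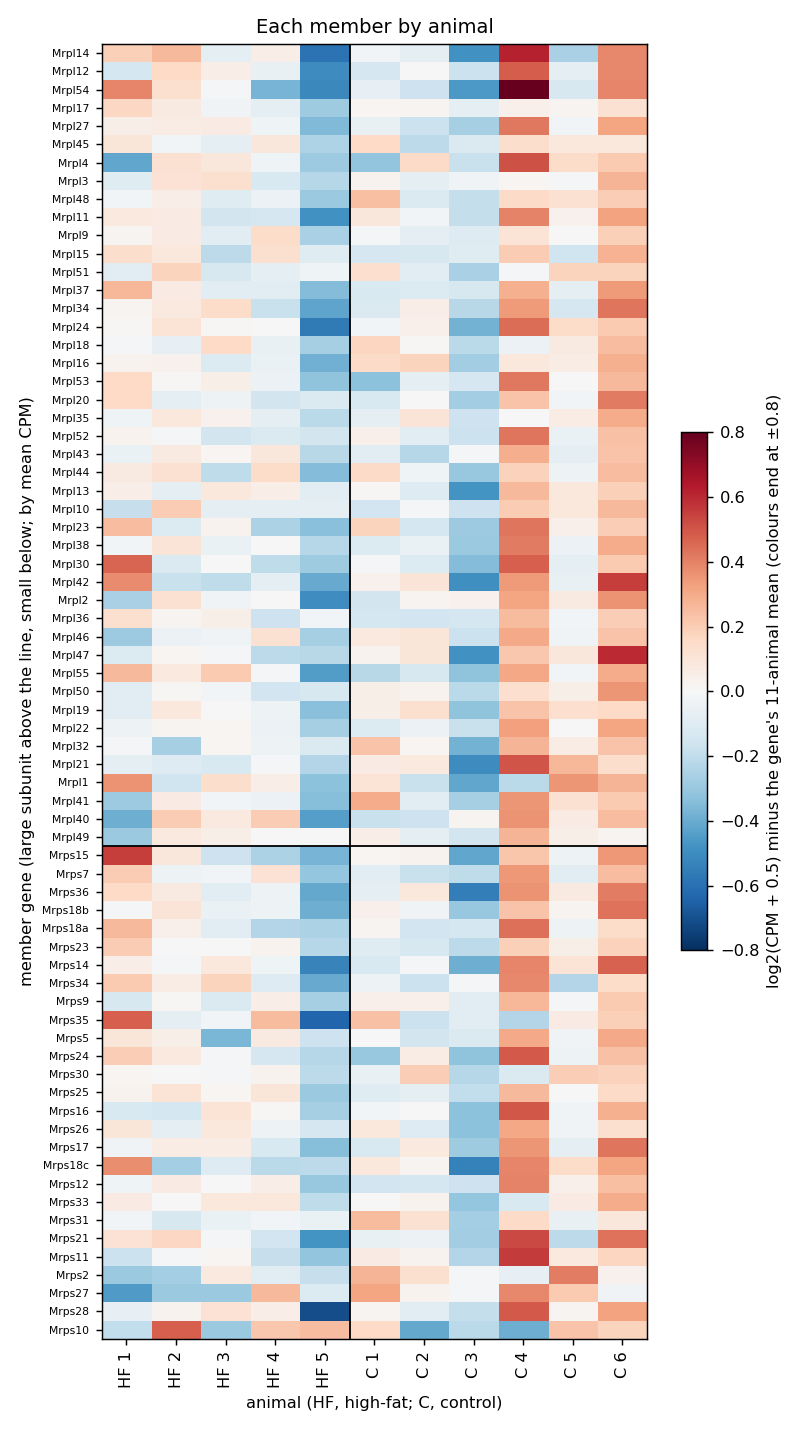
Each of the 71 members (rows, large subunit above the line and small below, by mean CPM) in each of the 11 animals (columns, high-fat left of the line and control right). Colour is log2(CPM + 0.5) minus the gene's mean over animals, blue below and red above, with colours ending at 0.8. High-fat animal 5 and control animal 3 are blue and control animals 4 and 6 red over most rows of both subunits, with Mrps10, Mrps2 and Mrps30 among the exceptions.

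By maternal diet, 64 of 71 members had a lower mean in high-fat animals and 7 a higher one, where 49.1% of all genes tested had a lower mean. The median log2 fold change of the members was only -0.10, against 0.00 for all genes, and ranged from -0.32 to 0.17. In the quasi-likelihood test of edgeR, with p adjusted by Benjamini-Hochberg over all 10814 genes, 0 members and 0 genes (0%) passed 0.05, with a smallest adjusted p of 0.974 among members. At an unadjusted p under 0.05 there were 2 lower members, Mrps2 and Mrps27, and no higher one. Over all genes 1.39% were lower and 3.45% higher at that level. DESeq2 and edgeR's likelihood ratio test called 7 and 8 genes after adjustment and limma voom 0, none of them a member. The log2 fold change was smaller than its SE for 42 of 71 members and for 65.9% of all genes tested. The groups overlapped in all 71 members, and they did not overlap in 0.166% (lower) and 0.203% (higher) of all genes tested.

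The mean deviation of all members was -0.06 ± 0.13 in high-fat animals (SD, n = 5) and 0.05 ± 0.19 in controls (SD, n = 6), a difference of -0.10 within the spread of either group. Because the members move together, their count on the lower side is not 71 separate observations. It moved with the animals at the extremes. Leaving out high-fat animal 5 gave 52 lower members and a median log2 fold change of -0.06. Leaving out control animal 4 gave 54 and -0.07, and leaving out control animal 6 gave 58 and -0.06. Leaving out control animal 3 gave 69 and -0.15, and the number of members with an unadjusted p under 0.05 was 12. That number was 0 when high-fat animal 1 was left out, 3 for high-fat animal 4, and 1 for high-fat animal 2, 3 or 5 or control animal 4. The share of all genes at that level in these runs is not given here, so the counts stand without a background. High-fat animals 1 to 4 stood between -0.03 and 0.03, inside the range of controls.

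**Figure D4:**
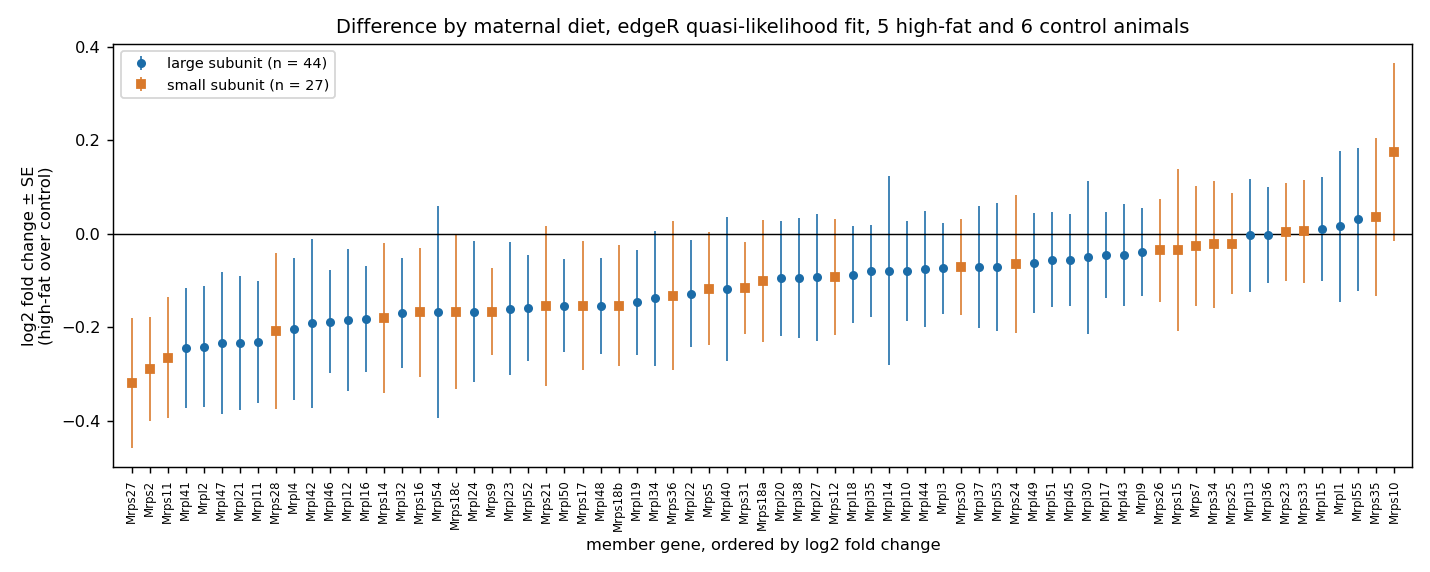
Log2 fold change of each of the 71 members, high-fat over control, with its SE as a bar (edgeR, 5 high-fat and 6 control animals), ordered from lowest to highest. Circles are large subunit and squares small subunit members. The values run from -0.32 (Mrps27) to 0.17 (Mrps10). Both subunits are mixed over most of the order, with small subunit members at both ends. Large subunit values run from -0.25 to 0.03.

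The subunits differed little in this respect. Of the large subunit members 41 of 44 were lower (median log2 fold change -0.10), and of the small subunit members 23 of 27 (median -0.12). Placing Mrps18a and Mrps30 in the large subunit, where structures put their proteins, and leaving out Mrps36 gave 43 of 46 and 20 of 24, with the same medians of -0.10 and -0.12. Members with a bacterial counterpart had 39 of 43 lower (median -0.13), and those specific to mitochondria 24 of 27 (median -0.08). All 5 members of the stalk (Mrpl10, Mrpl11, Mrpl12, Mrpl53 and Mrpl54), all 6 of the central protuberance and all 6 at the exit tunnel had lower means, with medians of -0.17, -0.14 and -0.14. So did all 5 at the decoding site and mRNA channel, with a median of -0.09. None of these differences between classes was tested.

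In the small subunit the members with the smallest p were Mrps2 and Mrps27. Mrps2, which sits between head and body of the small subunit, had 21.8, 22.2, 28.4, 25.4 and 23.6 CPM in high-fat animals. Controls had 32.6, 29.5, 26.7, 25.6, 35.8 and 27.5 CPM. Only high-fat animal 3 reached into the range of controls. The log2 fold change was -0.29 ± 0.11 (SE), with edgeR adjusted p = 0.974. Mrps27, a pentatricopeptide repeat protein, had 14.5, 16.2, 16.2, 24.0 and 18.5 CPM in high-fat animals, against 25.0, 20.4, 19.8, 26.2, 23.2 and 19.5 CPM in controls. Only high-fat animal 4 lay above the lowest control. The log2 fold change was -0.32 ± 0.14 (SE), with edgeR adjusted p = 0.974. Both are among the 7 genes that did not follow the other members. Without 1 library Mrps2 ran from -0.35 to -0.25 and Mrps27 from -0.45 to -0.25.

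Mrps11 and its head-to-head neighbour Mrpl46 were both lower on average. Mrps11, a platform protein, had 26.0, 29.2, 29.6, 25.7 and 23.5 CPM in high-fat animals, against 30.8, 29.9, 24.9, 43.5, 31.0 and 33.2 CPM in controls. Mrpl46, of the central protuberance, had 32.0, 37.9, 38.4, 42.6 and 32.4 CPM in high-fat animals, against 41.4, 41.8, 34.6, 48.4, 38.4 and 46.0 CPM in controls. Control animal 4 was highest in both. Their log2 fold changes were -0.27 ± 0.13 and -0.19 ± 0.11 (edgeR adjusted p = 0.974 for each). Mrpl47, at the exit tunnel, averaged 34.4 ± 2.65 CPM in high-fat animals and 40.5 ± 9.66 CPM in controls. Its neighbour Ndufb5 averaged 434 ± 61.1 and 505 ± 110 CPM, with log2 fold changes of -0.23 ± 0.15 for Mrpl47 and -0.22 ± 0.16 for Ndufb5. Neighbours of other members did not all have lower means. Psma2 stood at -0.05 ± 0.09 beside Mrpl32 (-0.17 ± 0.12), and Hira at -0.16 ± 0.11 beside Mrpl40 (-0.12 ± 0.15). Fau stood at 0.08 ± 0.15 beside Mrpl49 (-0.06 ± 0.11), and Tcp1 at 0.19 ± 0.13 beside Mrpl18 (-0.09 ± 0.10). Mrpl46, Mrpl47, Mrpl32, Mrpl18 and the neighbours outside the members were named for their place in the genome.

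In the large subunit the smallest p belonged to Mrpl41, Mrpl2 and Mrpl11. Mrpl41 had 20.1, 25.8, 24.3, 23.9 and 19.4 CPM in high-fat animals, against 30.4, 23.2, 20.5, 31.7, 26.9 and 28.6 CPM in controls (log2 fold change -0.25 ± 0.13). Mrpl2, a core protein beside the catalytic centre, averaged 40.6 ± 6.67 CPM in high-fat animals and 48.0 ± 6.53 CPM in controls (-0.24 ± 0.13). Mrpl11, at the base of the stalk, had 94.8, 94.0, 81.3, 81.8 and 64.1 CPM in high-fat animals, against 95.8, 88.5, 78.8, 118, 92.0 and 113 CPM in controls (-0.23 ± 0.13). High-fat animal 5 was lowest in all of these 3, and its removal left -0.19, -0.16 and -0.15. Mrpl12 had a log2 fold change of -0.19 ± 0.15, Mrpl10, which anchors it to the stalk, -0.08 ± 0.11, Mrpl3 -0.07 ± 0.10, and Mrpl44, of the double-stranded RNA nuclease family, -0.08 ± 0.12. Mrpl14 and Mrpl54 stood at -0.08 ± 0.20 and -0.17 ± 0.23 and turned positive without control animal 4 (0.06 and 0.02). Mrpl14 did so without high-fat animal 5 too (0.04).

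The members on the higher side were close to level. They were Mrps10 (log2 fold change 0.17 ± 0.19), Mrps35 (0.04 ± 0.17), Mrpl55 (0.03 ± 0.15), Mrpl1 (0.02 ± 0.16), Mrpl15 (0.01 ± 0.11), Mrps33 (0.01 ± 0.11) and Mrps23 (0.003 ± 0.11). Of other small subunit proteins, the decoding protein Mrps12 stood at -0.09 ± 0.12, Mrps16 at -0.17 ± 0.14, Mrps7 at -0.03 ± 0.13 and the mitochondria-specific Mrps34 at -0.02 ± 0.14. The 3 paralogues of bacterial S18 differ in place, with Mrps18a in the large and the other two in the small subunit. Their log2 fold changes were -0.10 ± 0.13 (Mrps18a), -0.15 ± 0.13 (Mrps18b) and -0.17 ± 0.17 (Mrps18c). Mrps18b averaged 106 ± 12.8 CPM in high-fat animals and 117 ± 20.5 CPM in controls, Mrps18a 86.2 ± 13.2 and 92.5 ± 15.3 CPM, and Mrps18c 40.9 ± 8.35 and 45.9 ± 9.47 CPM. Reads of 36 bases can be hard to place where copies exist, and RefSeq lists a pseudogene or a copy for 24 members, Mrps18b and Mrps18c among them. The 47 without such an entry had 43 lower means and a median of -0.09, and the 24 with one had 21 and -0.15.

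Genes that build and serve the mitochondrial ribosome also had mostly lower means, and 0 genes of these lists passed the adjusted test of edgeR. Of 7 ribosome members named otherwise, 5 were lower (median -0.08), with Chchd1 at -0.15 ± 0.13. Of 16 assembly and RNA modification genes, 14 were lower (median -0.11). They included Ngrn, which acts on the large ribosomal RNA (85.9 ± 6.31 CPM in high-fat animals, 99.5 ± 7.72 CPM in controls). They also included the ribosomal RNA methyltransferase gene Mrm1 (10.3 ± 2.57 CPM in high-fat animals, 14.3 ± 3.78 CPM in controls). In the edgeR fit adjusted p = 0.974 for both. Of 16 mitochondrial aminoacyl-tRNA synthetase genes, 13 were lower (median -0.10). Lars2 averaged 22.7 ± 1.77 CPM in high-fat animals and 18.9 ± 3.01 CPM in controls, a log2 fold change of 0.26 ± 0.12, with edgeR adjusted p = 0.974. Qrsl1 averaged 15.7 ± 2.34 CPM in high-fat animals and 19.8 ± 4.13 CPM in controls. Of 12 mitochondrial transcription and RNA genes, 9 were lower (median -0.05), with the elongation factor gene Tefm at -0.25 ± 0.11 and the helicase gene Supv3l1 at -0.19 ± 0.10. Of 10 translation factor genes, 8 were lower (median -0.03), with Gfm2 at -0.14 ± 0.10.

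These lists did not all share the animal pattern. The 7 ribosome members named otherwise stood at -0.26 in high-fat animal 5, -0.23 in control animal 3 and 0.22 in control animals 4 and 6, close to the 71 members. The 34 nuclear complex I genes swung further in the same animals, with -0.46 in high-fat animal 5, -0.32 in control animal 3, and 0.43 and 0.37 in control animals 4 and 6. Their SD over animals was 0.26. Translation factors stood at -0.15 and transcription and RNA genes at -0.08 in control animal 4, where the ribosomal proteins were at 0.27. Synthetases stood at -0.25 in high-fat animal 1, against 0.03 for the ribosomal proteins. Cytosolic ribosomal protein genes, 74 in the test, had 33 lower means and a median of 0.02, and their mean deviation was 0.27 in high-fat animal 1 and -0.07 in high-fat animal 5. In control animals 3, 4 and 6 it was -0.24, 0.32 and 0.09, so it shared the low and high values of control animals 3 and 4. It was also low in control animal 5 (-0.20), where the 71 members stood at 0.03. Each cytosolic gene counts equally here, also those with few reads (means down to 0.775 CPM) and erratic ones. Rpl12, for example, ran from 2.37 CPM in control animal 3 to 93.7 CPM in control animal 4. No difference between lists was tested.

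**Figure D5:**
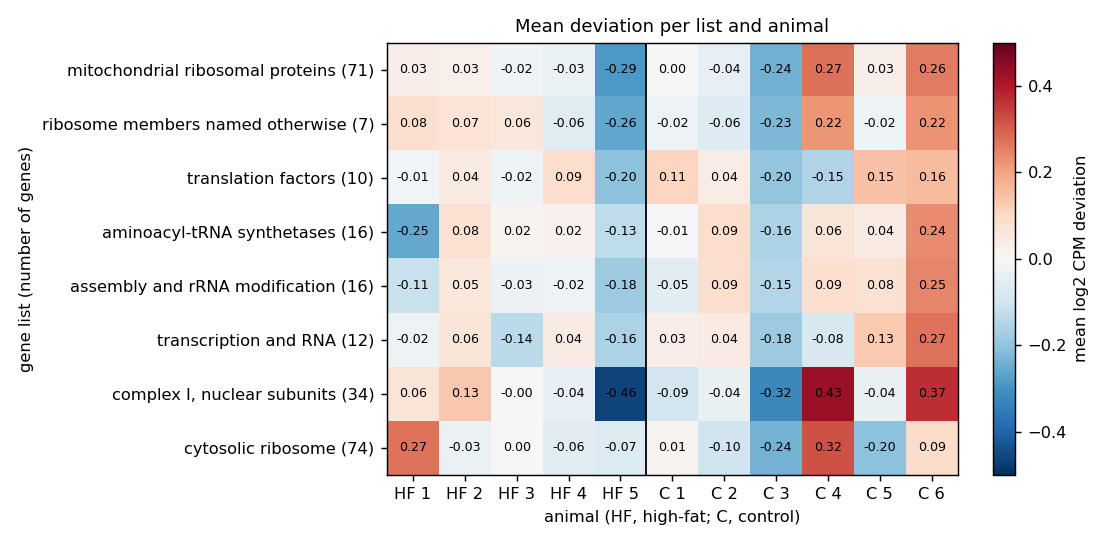
Mean deviation of log2 CPM from each gene's mean over animals, for 8 gene lists (rows, number of genes in brackets) in 11 animals (columns, high-fat left of the line and control right), with the value printed in each cell. The top rows, the 71 mitochondrial ribosomal protein genes and the 7 members named otherwise, and the complex I row share the low values of high-fat animal 5 and control animal 3 and the high values of control animals 4 and 6.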

How the data were processed

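The deposited table holds raw counts of reads by gene symbol, as whole numbers, for the 11 animals. Per the submitters' processing notes FastQC, BWA, HTSeq and edgeR were used, without versions. Build, annotation and strand setting: not given in the sources used here. Each column was matched to its animal by name, and groups came from the diet label. Animals are numbered here in the order of the labels, so high-fat animals 2, 3, 4 and 5 carry the numbers 3, 4, 5 and 6 in the column names. Over 25 pairs of libraries within a group, the smallest chi-square per degree of freedom was 25.0, so none was a duplicate.

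Genes were kept by edgeR's filterByExpr, scaled by TMM and tested with the quasi-likelihood F test (R 4.3.3, edgeR 4.0.16). An SE is the size of the log2 fold change over root F. CPM values are TMM-scaled, and log2 CPM uses a prior count of 2. Biological coefficients of variation are edgeR's values per gene. The code was tested on simulated data. A count of 0 allows up to 3 counts, or 0.195 to 0.295 CPM, and covers counting error only.

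The members and lists were chosen with earlier results of these data known. Named members were, by rule, the 6 with the smallest p per direction, the 3 with the most and the fewest reads per subunit, the 3 with the largest and smallest SD, and textbook members. The share of reads per coding length, planned for levels, was not used. Alternatives used RLE, upper quartile or library size scaling, other filters, DESeq2 1.42.0, the likelihood ratio test, limma 3.58.1 voom, a covariate for the letter that starts an animal's name, and each library left out. The result of 1 cell marker list is not reported here.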

Additional observations from a re-analysis of the deposited data

Results flagged for a closer look

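A gap test was run on 74 sets of animals of the same group, each of 5 high-fat or 6 control animals. A single animal stood apart from its group in 9 sets, where chance alone passes about 1 of 20. In high-fat animal 5 the mean deviation of all members was -0.29, that of the large subunit -0.29 and that of the small subunit -0.29, against -0.03 to 0.03, -0.05 to 0.04 and -0.03 to 0.06 in the other 4 high-fat animals. These 3 values come from the same genes. The same animal was low in Mrps28 (11.6 CPM, others 18.5 to 21.0 CPM) and Mrps30 (49.9 CPM, others 57.2 to 58.8 CPM). High-fat animal 1 was low in Mrpl49 (13.6 CPM, others 16.8 to 17.7 CPM) and high in Mrps18c (55.5 CPM, others 35.3 to 39.9 CPM). High-fat animal 2 was high in Mrpl10 (58.5 CPM, others 44.7 to 48.4 CPM). Control animal 6 was high in Mrpl3 (133 CPM, others 104 to 112 CPM).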

How the results depend on the processing

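No member passed the adjusted test under any alternative run, with a smallest adjusted p of 0.645 (high-fat animal 2 left out). Over all genes 0 were called except by DESeq2 (7) and the likelihood ratio test (8). The number of members lower in high-fat animals was 58 to 68 under the other scalings, filters, tests and the covariate, and 52 to 70 without 1 library. It was 61 of 68 with the capital-letter symbols alone and 43 of 47 without genes that have copies, 2 alternatives chosen after seeing the data. The median log2 fold change of members ran from -0.15 to -0.07 under these settings and from -0.15 to -0.06 without 1 library. That of all genes ran from -0.02 to 0.04. Members with an unadjusted p under 0.05 numbered 2, but 3 with upper quartile scaling and 0 with library size scaling. They numbered 5 with a covariate for the name letter, and 0 to 12 without 1 library. For these alternatives the share of all genes at that level is not given here. The large minus small subunit difference in medians, 0.02, ran from -0.03 to 0.02 without 1 library. The median SD over animals, 0.21, was 0.16 with library size scaling. The share of promoters with a motif, 50%, was 29.3% in the 250 bases before the start alone. That window leaves out every match that reaches into the 50 bases after the start. Among member promoters AAGATGGCG went from 15.5% to 1.72% and CCGGAAG from 31% to 17.2%. CPM per kb of coding length was planned and not run. The column names number animals in both groups, and 5 numbers are shared. Same-numbered animals did not deviate together (correlations over genes -0.355 to 0.037, highest with its own number for 0 of 5). With 5 pairs a weak shared effect could be missed, so whether the numbers mark a pairing was not settled. A replicate block on them, chosen after seeing the data, gave 68 lower members, 0 with an unadjusted p under 0.05 and 0 genes called.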
